A study of Homo sapiens with 4 samples.

Results

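Sites assigned to NTM were taken from a list of RNA sites of P5CS in NCI-H1299 cells, an established human lung carcinoma line, and every row whose assigned symbol was NTM was kept. There were 173 such sites among 17625 in the list, or 0.982%, all on chromosome 11 and all assigned to transcript ENST00000374791.7 of gene ENSG00000182667.15. In LACE-seq, RNA bound to a protein is captured with an antibody and copied into cDNA, and the ends of the cDNA place the contacts of the protein on the genome. The study made 4 libraries, 2 with an antibody against P5CS, an enzyme of proline synthesis in mitochondria, and 2 with IgG, a control antibody that has no specific target. All 4 came from this 1 line, with no treatment named, and the labels do not tell if the 2 libraries of a group were grown separately. The list on build hg38 holds positions, strands and annotations, with no value per library and no score. No level, replicate error or comparison of anti-P5CS with IgG can therefore be given, and library depth is unknown. A site below is a position in the list, and no excess over IgG was measured. NTM was chosen by its number of listed sites, so that number is a description and no test is attached to it.

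NTM encodes neurotrimin, a cell adhesion protein of the immunoglobulin superfamily that is held at the outer membrane by a lipid anchor. It belongs to the IgLON family, whose members OPCML, LSAMP, NEGR1 and IGLON5 are known mainly from neurons, where they take part in adhesion and neurite outgrowth. Genes of this family are mostly very long because of their introns, which are copied into the precursor RNA and removed by splicing. Sites in introns lie in sequence that the mature mRNA lacks.

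The assigned transcript runs along the plus strand from chr11:131370478 to 132336822, a length of 966345 bases. Listed sites lay between 131370980 and 132162580, and with both strands merged they covered 2997 bases, or 0.310% of the transcript. NTM ranked 6 by site count among 4340 assigned genes and held 18.5% of the 937 sites on chromosome 11. Among genes of the class protein-coding in RefSeq it ranked 2, after CCDC200 with 325 sites and ahead of PLEC with 100 and BRF1 with 99. The reference span of NTM in RefSeq, which begins at 131370615, held the same 173 sites and none assigned to another gene.

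The first listed site began 502 bases after the start of the assigned transcript and 365 bases after the first of 5 NTM starts in RefSeq (GRCh38.p14). The sequences around the first and the second of these starts are shown because the densest sites followed the first. After the second, 1 site lay within 10 kb, and 8 more lay just beyond that distance, at 131597120 to 131599440. Each sequence runs 5′ to 3′ on the plus strand. The 250 bases before the start are in lower case and the 50 bases from the start on in capitals. The first window is chr11:131370365-131370664 and the second is chr11:131585312-131585611.
First NTM start: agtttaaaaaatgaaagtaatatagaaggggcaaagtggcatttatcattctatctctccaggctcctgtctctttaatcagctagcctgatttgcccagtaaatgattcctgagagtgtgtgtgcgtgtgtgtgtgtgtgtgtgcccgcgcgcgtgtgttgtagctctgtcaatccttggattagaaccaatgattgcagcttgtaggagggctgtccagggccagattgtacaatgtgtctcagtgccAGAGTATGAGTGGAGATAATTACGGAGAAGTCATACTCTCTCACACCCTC
Second NTM start: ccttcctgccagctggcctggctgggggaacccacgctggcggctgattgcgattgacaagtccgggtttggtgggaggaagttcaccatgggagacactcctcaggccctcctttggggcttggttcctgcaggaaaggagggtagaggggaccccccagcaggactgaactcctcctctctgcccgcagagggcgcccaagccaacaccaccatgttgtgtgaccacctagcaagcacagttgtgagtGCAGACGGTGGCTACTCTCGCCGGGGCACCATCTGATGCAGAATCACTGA
Neither window held a listed site. The GC content was 46.0% in the first window and 61.3% in the second, and the median over 35116 RefSeq windows of this kind was 58.7%. The first window holds an unbroken run of GT repeats. The 12 letters GTGTGTGTGTGT, searched on both strands, were found in it and in none of the other NTM windows, and 209 of all 35116 windows (0.595%) held them. These letters are part of that run, so their presence in the first window was given in advance. A link between the run and the listed sites was not tested.

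Sites were densest at the very start of the gene and thinned out along the first intron. The first 10 kb after the transcript start held 35 sites. The next 10 kb held 8, and the 10 kb after that held 11. Between 30 and 50 kb there were 8.50 sites per 10 kb, between 50 and 100 kb 3.80, between 100 and 200 kb 2.80 and between 200 and 300 kb 1.70. The fall was not even, because the density was 3.20 sites per 10 kb again between 300 and 400 kb. Beyond 400 kb, in the remaining part of the transcript, only 6 sites were listed, or 0.106 per 10 kb. The first 10 kb thus had 10.3 times the density of the 10 to 400 kb range, which averaged 3.38 sites per 10 kb.

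**Figure D1:**
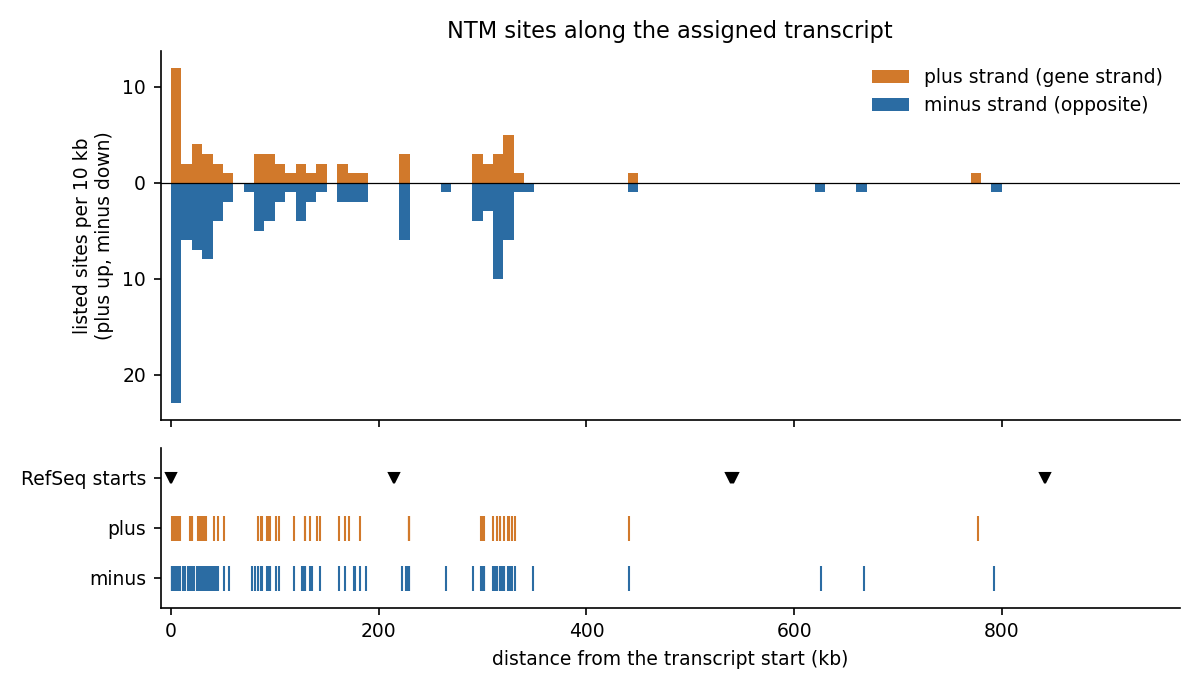
Number of listed NTM sites in each 10 kb of the assigned transcript (upper panel, plus strand upward and minus strand downward) and the position of each site by strand (lower panel), against the distance from the transcript start in kb. Triangles mark the 5 RefSeq starts of NTM. The first 10 kb holds 12 plus-strand and 23 minus-strand sites, and 6 sites lie beyond 400 kb.

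In the transcript's own exon and intron numbering, 165 sites lay in intron 1 of 7, between 131370980 and 131811480. Intron 2 held 2 sites, at 131996300 and 132037900, and intron 3 held 2, at 132147180 and 132162560. The other 4 introns held none, and the last site ended 174242 bases before the transcript end. In all 169 sites (97.7%, exact binomial interval 94.2 to 99.4) were annotated as intronic. The other 4 were annotated as exonic, and each of these lay in an exon of a different gene ID within intron 1 territory, not in an exon of NTM. They were a pair on both strands at 131538100 in exon 5 of 8 of a transcript of ENSG00000237654.6, a plus-strand site at 131542180 in exon 2 of 2 of a transcript of ENSG00000285980.2, and a minus-strand site at 131661000 in exon 2 of 2 of a transcript of ENSG00000224795.4. No site was therefore annotated to an exon of NTM itself. Among all other listed sites the intronic share was 37.6% (36.8 to 38.3). Of the other 21 genes with 50 or more sites, 3 had a higher intronic share than NTM. All intervals given here are 95% intervals that cover counting error only, and since sites of 1 gene are not independent they are too narrow.

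When the transcript was divided into 10 equal parts, the first part held 90 of the 173 sites, or 52.0% (44.3 to 59.7). The second held 28, the third 10 and the fourth 39, and the last 6 parts together held 6. Among the 14725 other sites that lie inside their assigned transcript, the first part held 15.4% (14.8 to 15.9). For the other 21 genes with 50 or more sites, only sites inside the assigned transcript were counted. Such sites were as few as 7 of 79 in a gene that counts as 0%. The first part held 0% to 37.0% in the 21 genes, with a median of 10.2%, so NTM lay above all of them. Those genes differ in length and in the part of the transcript that introns take up. In a closer match, limited to intron 1 of the assigned transcript, 90 of 165 NTM sites (54.5%, 46.6 to 62.3) lay in the first part, against 147 of 372 (39.5%, 34.5 to 44.7) in other transcripts of 100 kb or more, from 176 genes. The difference was not tested, because sites of 1 gene are not independent.

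The sites fell into 62 clusters when sites with at most 1000 bases between them were joined across strands. Of these, 22 were single sites and 20 were single pairs on both strands, so most clusters marked 1 place only. The 9 clusters with 5 or more sites held 80 of the 173 sites. The largest lay at chr11:131370980-131377780, next to the transcript start, and held 33 sites, or 19.1% (13.5 to 25.7), at 26 start positions over 6801 bases. Its density was 4.85 sites per kb, and the median distance between neighbouring start positions in it was 280 bases, with a range of 20 to 620. The next largest cluster held 8 sites at chr11:131597120-131599440. A cluster of 7 sites lay at chr11:131686920-131687860, and clusters of 6 lay at chr11:131668960-131670220 and chr11:131694700-131696780. The remaining 4 of the 9 held 5 sites each, and lay at chr11:131396740-131397840, chr11:131457340-131457920, chr11:131498520-131499440 and chr11:131682640-131684200. The most compact of the 9 was the one at chr11:131457340-131457920, whose 4 start positions lay within 581 bases. In the cluster at chr11:131668960-131670220 all 6 sites were exact pairs on both strands, at 3 positions that were 600 and 640 bases apart.

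Within clusters, neighbouring start positions lay a median of 360 bases apart (order-statistic interval 240 to 480, 63 distances), with quartiles at 120 and 580 bases. Over the whole gene the 125 different start positions were a median of 890 bases apart, and the widest empty stretch ran 184840 bases from 131811460 to 131996300. The distances within clusters spread from 20 to 940 bases.

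With a wider join of 20 kb, 3 stretches held most of the sites. The first, chr11:131370980-131426800, held 74 sites (42.8%) over 55821 bases, a density of 1.33 sites per kb. The second, chr11:131448140-131558260, held 44 sites over 110121 bases, or 0.400 per kb. The third, chr11:131661000-131719200, held 39 sites over 58201 bases, or 0.670 per kb. A short stretch of 9 sites lay at chr11:131593000-131599440, between the second and the third. It begins 7438 bases after the second RefSeq start, and only 1 of its sites lay within 10 kb after that start. The third start (131909924), the fourth (131911336) and the fifth (132211776) had 0 sites within 10 kb after or before them. At the first start, 35 sites lay within 10 kb after it and 0 within 10 kb before it.

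Sites lay more often on the minus strand, opposite to the gene. There were 112 minus-strand and 61 plus-strand sites, so 64.7% (57.1 to 71.8) were opposite. The sources used here do not say whether the list's strand column stands for the cDNA or the RNA. The minus strand held the larger number in each of the 3 main stretches, with 50 against 24 in the first, 26 against 18 in the second and 25 against 14 in the third. Among the 15 clusters with 3 or more sites, 11 had more minus-strand sites, 4 had equal numbers and 0 had more plus-strand sites. Over the whole gene, 36 clusters held both strands, 23 the minus strand only and 3 the plus strand only. For all other listed sites the opposite share was 58.2% (57.5 to 59.0), and for other intronic sites it was 58.1% (56.9 to 59.3). The lower end of the NTM interval lies below both values.

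Many of the sites had a partner with identical coordinates on the other strand. There were 47 such pairs, which hold 94 sites, or 54.3% (46.6 to 61.9). The share was 39.1% (38.4 to 39.9) among all other listed sites and 31.2% (30.1 to 32.3) among other intronic sites. Over the other 21 genes with 50 or more sites it ran from 7.59% to 67.9%, with 3 genes above NTM. These shares were not matched for site width. Within NTM, 58.1% of the sites of the smallest width were in pairs, against 32.0% of the wider sites. The first stretch held 18 of the pairs, the second 15 and the third 12, and the pair at 131811460 stood alone, 92280 bases past the nearest listed site. None of the 4 sites in introns 2 and 3 had a partner, 3 of them being on the minus strand and 1 on the plus strand. A pair always adds 1 site to each strand, so the excess on the minus strand came from the 79 sites without an exact partner. Of these, 65 lay on the minus strand and 14 on the plus strand, which gives 82.3% (72.1 to 90.0) opposite to the gene. The same share was 63.5% (62.6 to 64.5) among 10624 other unpaired sites, and it ran from 35.4% to 95.9% over the other 21 genes, with 1 gene above NTM. This difference was not tested, because neighbouring sites of 1 gene share their source. Leaving out pairs also widens any strand imbalance, more so where more sites are in pairs, as in NTM. With pairs kept, the opposite share was 64.7% for NTM and 58.2% for all other listed sites.

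Of the 14 unpaired plus-strand sites, 9 overlapped a minus-strand site with other ends, and 5 overlapped none. A shared end base counted as an overlap. Of the 65 unpaired minus-strand sites, 7 overlapped a plus-strand site and 58 overlapped none, though many of the 58 lay in clusters with other sites. The same overlaps are counted from each strand, over 14 plus-strand and 65 minus-strand sites, so the counts are not independent. Overlaps of this kind were not counted for other listed sites, so nothing particular to NTM can be read from them.

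**Figure D2:**
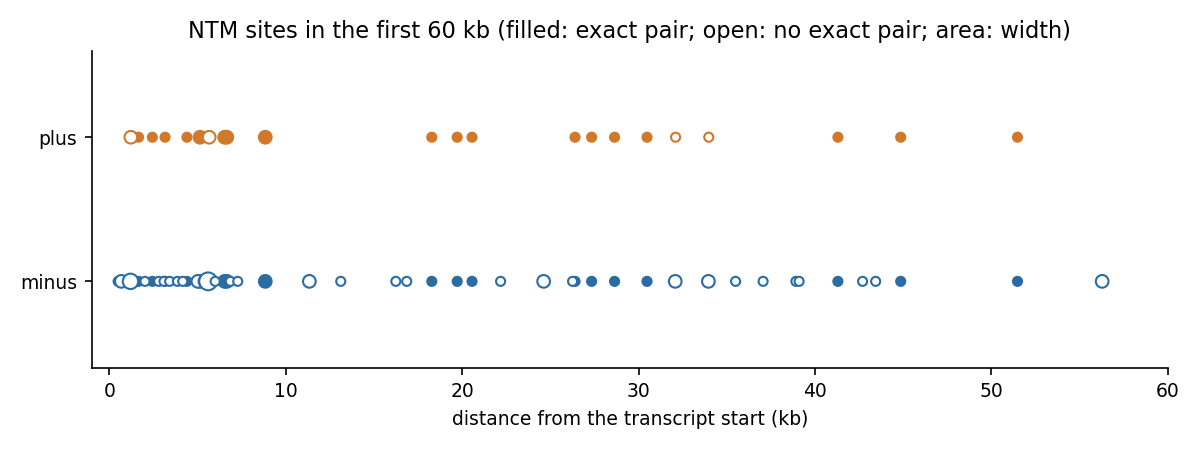
Listed NTM sites in the first 60 kb of the assigned transcript, by strand (vertical position) and distance from the transcript start in kb (horizontal). Filled circles have a partner with identical coordinates on the other strand, open circles have none, and circle area is proportional to site width. Of the 74 sites shown, 50 lie on the minus strand, and 20 are wider than 21 bases.

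Most sites had the smallest width that the list contains. All starts in the list are multiples of 20 bases, and 148 NTM sites (85.5%, 79.4 to 90.4) were 21 bases wide. Another 22 were 41 bases wide, and 1 site each was 61, 81 and 101 bases wide. The widest lay on the minus strand at chr11:131599280-131599380, the 81-base site on the minus strand at chr11:131376080-131376160, and the 61-base site on the minus strand at chr11:131371680-131371740. The share at the smallest width was 74.2% (73.5 to 74.8) among all other listed sites and 70.0% (68.9 to 71.1) among other intronic sites. The wider sites gathered at the start of the gene. Within 60 kb of the transcript start 20 of 74 sites (27.0%) were wider than 21 bases, and beyond it 5 of 99 (5.05%) were. The largest cluster alone held 13 of the 25 wider sites. Wider sites were on the minus strand in 19 of 25 cases (76.0%), against 112 of 173 (64.7%) over all NTM sites. A link of width with strand was not tested. Of the 47 exact pairs, 43 were 21 bases wide, a width that also made up 85.5% of all NTM sites.

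**Figure D3:**
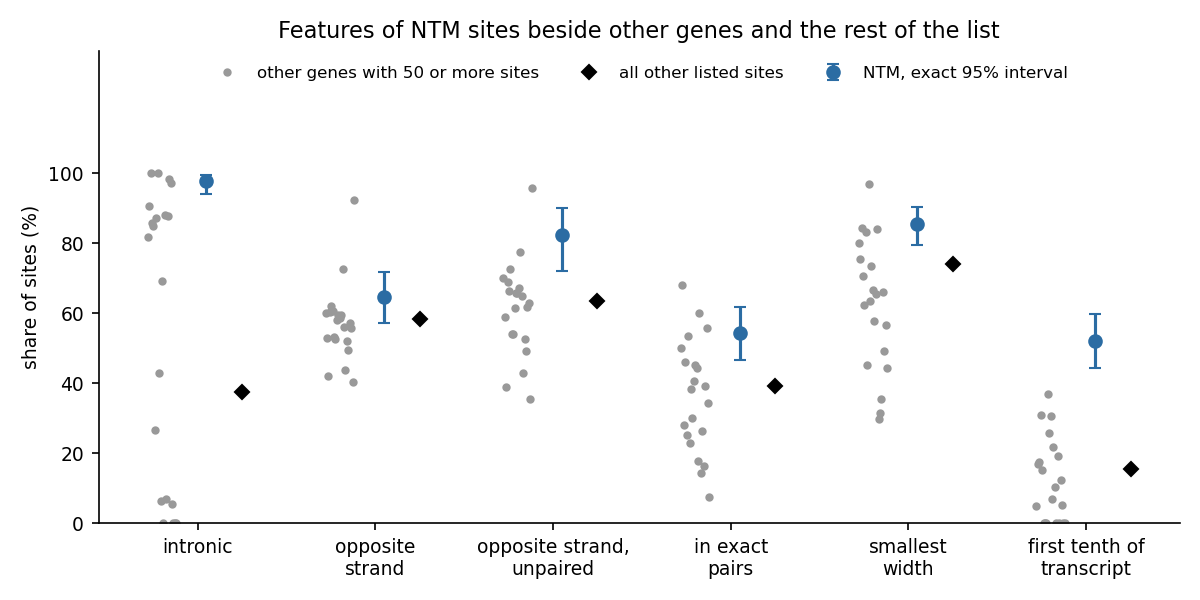
Share of sites in percent for 6 features. NTM is blue, with its exact binomial 95% interval. Each of the other 21 genes with 50 or more listed sites is grey, and all other listed sites are black diamonds. For the first of 10 parts of the transcript, grey and black values count only sites inside their assigned transcript. NTM lies at 52.0% for that first part, above the other 21 genes, whose highest value is 37.0%.

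Other very long genes carried few sites. Of 315 protein-coding RefSeq genes with a span of 500000 bases or more, 213 had no assigned site, and the median was 0. The other 314 genes together had 219 assigned sites, and none of them had more than 9. By reference span the highest other gene had 20. Per 100 kb of span, NTM had 17.9 sites. GSE1, a subunit of a histone deacetylase complex, came next with 1.78 (9 assigned sites, 20 in its span), followed by AKAP6, an anchoring protein for protein kinase A, with 1.18 (6 sites). The value for NTM was 10.1 times that of GSE1 by assigned sites. Counting every site in the reference span, GSE1 had 3.95 per 100 kb and the value for NTM was 4.54 times as high. RNA levels of these genes and of the other IgLON genes in NCI-H1299 cells are not known from the list. The genes were therefore not matched to NTM for RNA level.

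**Figure D4:**
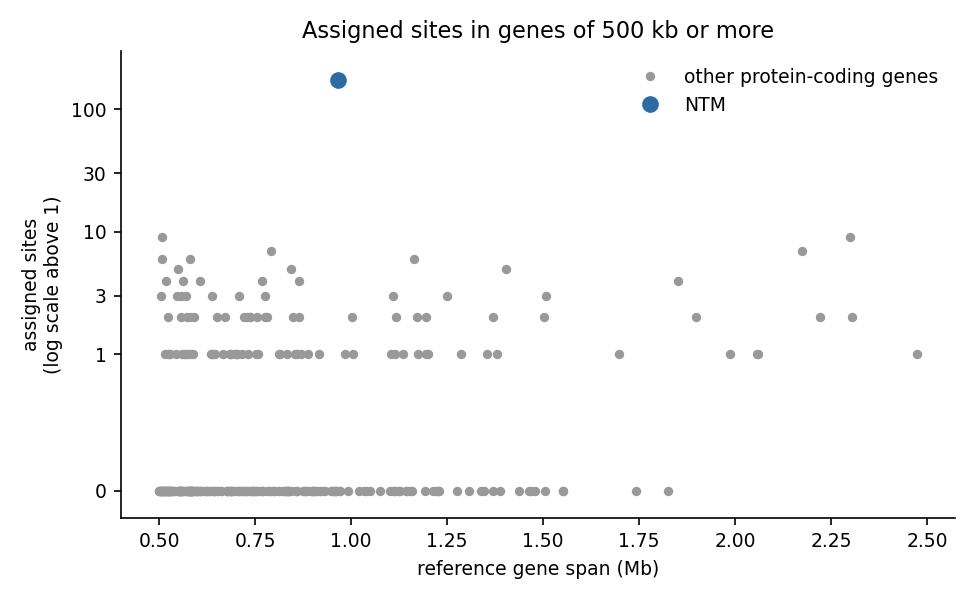
Assigned sites (vertical, logarithmic above 1) against the reference span in Mb for the 315 protein-coding genes of 500 kb or more. NTM has 173 sites, and no other gene in the plot has more than 9 by assigned symbol.

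The other IgLON genes had almost no sites. OPCML, the neighbour of NTM on chromosome 11 and longer than it with a span of 1117521 bases, had 2 sites. LSAMP, NEGR1 and IGLON5 had 0 each, by assigned symbol and by reference span. The 2 OPCML sites were a pair on both strands at 132525820, and they lay inside the small pseudogene LOC124902819.

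The surroundings of NTM held few sites. No listed site lay within 1 Mb before the transcript start, and the nearest one before it ended 1226058 bases away, at a site assigned to APLP2. After the transcript end the nearest site was the OPCML pair, 188998 bases away. The nearest RefSeq gene before NTM, the long noncoding RNA gene LOC124902794, had 0 sites. Of 7 RefSeq genes inside the NTM span, only NTM-AS2 (131533857 to 131540867) held sites, the pair at 131538100. NTM-AS1, NTM-AS3, NTM-IT, LOC124902795 and the pseudogenes RNU6ATAC12P and LOC100419058 held 0. The third stretch begins 1129 bases before the reference span of NTM-AS1. The first site of that stretch, at 131661000, is the minus-strand site annotated to an exon of ENSG00000224795.4.

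Likeness was measured among the 22 genes with 50 or more sites, as the sum of the differences from NTM in 5 shares (intronic, opposite strand, exact pairs, smallest width and largest cluster). Among the most alike were DAZAP1, an RNA-binding protein, with a sum of 57.6 percentage points, and the gene ENSG00000229335.2 on chromosome X. Of the 53 DAZAP1 sites, 48 were intronic, 28 lay on the opposite strand, 36 were in pairs and 40 had the smallest width. All 57 sites of ENSG00000229335.2 were intronic, and 48 had the smallest width. Only 24 of them (42.1%) lay on the opposite strand and 16 (28.1%) were in pairs, both below the NTM shares of 64.7% and 54.3%. NTM differed from DAZAP1 in where the sites lay, with 9 of 53 DAZAP1 sites in the first of 10 parts of its transcript against 90 of 173 for NTM. From the first to the last site NTM spanned 791601 bases and DAZAP1 24161. NTM also had the most clusters of the 22 genes, 62 against 10 for DAZAP1. The assigned transcripts differ in length, 966345 bases for NTM and 28116 for DAZAP1. Neither the span nor the cluster count was adjusted for length.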

How the data were processed

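LACE-seq sites from 4 libraries of NCI-H1299 cells, grouped by sample title, were analysed. Build hg38, STAR 2.7.10a and fastp 0.23.2 appear in the submitters' processing notes, with no role stated. The sources used here do not name the site caller or its threshold, or say how IgG and the replicates were used. The authors deposited 1 list with positions, widths and annotations. It has 0 columns of values per library, so depth is unknown and no test between libraries was run. Members are rows with the symbol NTM. Members, gene lists and naming rule (NTM, IgLON genes, genes in or next to NTM, the 3 most alike genes, the 3 long genes with most sites per 100 kb) were chosen with earlier results of these data known. One of the most alike genes is not reported here. Sites were joined into clusters at gaps of at most 1000 bases, or 20 kb for stretches. Cluster and pair finding was tested on simulated data. Shares have exact binomial (Clopper-Pearson) intervals. Gene spans and start sequences came from RefSeq (GRCh38.p14). Alternatives varied width, pairs, strand, gap, membership and the largest cluster. Python 3.11.15, pandas 2.3.3, numpy 2.4.6, scipy 1.17.1 and matplotlib 3.10.9 were used.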

Additional observations from a re-analysis of the deposited data

How the results depend on the processing

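No paired analysis was possible because the list gives no value per library; for the same reason leaving out replicates and a stricter score were not run. Taking every site in the reference span left the NTM count and shares as they were. In the long-gene comparison, an alternative chosen after seeing the data, it lowered the density of NTM relative to GSE1 from 10.1 to 4.54 times, since GSE1 then had 20 sites in place of 9. The number of clusters depends on the gap: 103 at 200 bases, 22 at 5000 and 9 at 20000, against 62 at 1000, and 40 on the plus strand alone. The largest cluster held 2.89% of sites at 200 bases, 41.0% at 5000, 42.8% at 20000 and 11.5% of plus-strand sites alone. The median spacing within clusters was 80.0 bases at a gap of 200, 620.0 at 5000, 770.0 at 20000 and 560.0 on the plus strand alone, so the value of 360 bases depends on the gap. The opposite-strand share was 82.3% with pairs left out. With only the 25 wider sites, that share was 76.0% and the share in pairs 32.0%. Without the largest cluster, 91.4% of sites had the smallest width. The other alternatives kept the shares within their intervals and the counts within 1.5 times. Each site is placed only to the 20-base grid.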
